A study of Homo sapiens with 17 samples.

Results

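The genes described are 8 of the 18377 genes that the arrays measured with a probe set of 1 gene symbol. They are the proteases ADAM19, ADAM8 and MMP12, the heparan sulfate enzyme SULF1, and the surface proteins EMP1, LAYN, ANTXR2 and ADGRG1. They were chosen by their signal after JAK3 siRNA in these same arrays, as pericellular genes that changed, with no stated threshold. Their values in that comparison are therefore given as a description with no test. For 7 of the 8 genes all 4 single differences between a JAK3 siRNA array and a control array had 1 sign, as was so in 48.3% of the 14466 genes tested. ADAM8 goes against the description, since it differed from its control by -0.03 on the log2 scale.

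RNA came from NKYS cells, an established lymphoma line of human NK/T cells kept in medium with interleukin-2, and each of 17 arrays measured 1 electroporated sample. The JAK3 arm had 2 arrays with JAK3 siRNA and 2 with the control siRNA titled for that knockdown. The EZH2 arm had 2 arrays with EZH2 siRNA, each tied by title to 1 of 2 control siRNA arrays. A further 9 arrays had plasmids: 2 an empty vector, 6 a full-length EZH2 plasmid (by title 2 wild type, 2 Y244D and 2 Y244A) and 1 an EZH2 plasmid titled as lacking the SET domain. Separate cultures per array are not stated, and p-values therefore rest on an array-to-array spread that may be technical. The labels name no siRNA sequence and no number of siRNAs per target, and for the 3 full-length plasmids of set 2 the construct in the title differs from that in the transfection field.

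The median signal of an array lay between 60.28 and 62.46 in the siRNA groups and between 64.48 and 72.98 with plasmids, and precision is limited by how few arrays each group has. JAK3 was at 136.7 and 138.1 with its siRNA against 322.5 and 326.3 in its controls, and EZH2 at 488.7 and 500.9 with its siRNA against 690.8 and 926.3. The EZH2 change (-0.69, adjusted p = 0.0275, limma) was called in 9 of 17 alternative fits. With full-length plasmids EZH2 lay between 802.5 and 2221, above the vector arrays at 258.8 and 349.5. The natural killer genes GZMB, PRF1, NKG7, CD7 and IL2RB, of 10 such markers, were above the array median on all 17 arrays, while CD3D, CD3E and CD3G of the T cell receptor complex stayed between 29.87 and 41.9. Of the 6 T cell markers CD4 was above the median on all arrays, at 210.4 to 420.4, and CD8A on 9. The other natural killer markers NCAM1, KLRD1 and KLRC1 were above the median on 14 to 16 arrays, and CD2 and FCGR3A on none. MS4A1 of B cells, PECAM1 of endothelium and EPCAM of epithelium were at most at 40.89, although 2 of 4 B cell markers, 2 of 5 epithelial and 2 of 8 fibroblast markers were above the median on all arrays. No list of markers of another cell type had a called member after either siRNA.

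Cells change the matrix around them with enzymes held at or released from their surface, and sense it through surface receptors. ADAM proteases are membrane-anchored and shed the outer parts of other membrane proteins, and matrix metalloproteases are secreted or membrane-bound enzymes that cut matrix proteins. Sulfatases of the SULF type remove sulfate groups from heparan sulfate chains outside the cell and so alter the binding of growth factors. JAK3 is the kinase of the common gamma chain receptors, interleukin-2 receptor included, and signals through STAT5. EZH2 is the methyltransferase subunit of Polycomb repressive complex 2.

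STAT5 binds elements of the form TTCNNNGAA, known as GAS. Promoters are shown for EMP1 and ADGRG1, the only genes with a GAS match among those with a promoter entry. That of ADAM19, which had none, is shown beside them. EMP1 and ADAM19 were lower and ADGRG1 higher after JAK3 siRNA. ANTXR2, also higher, and ADAM8 had no match and are not shown. Sequences are the 250 bases before the annotated start from RefSeq, build GRCh38.p14, in lower case. Capitals mark matches to GAS or to TGANTCA, the element of AP-1, which read the same on both strands. EMP1 lies at chr12:13196476-13196725 on the plus strand, the shown ADGRG1 entry at chr16:57619488-57619737 on the plus strand, and ADAM19 at chr5:157575776-157576025 on the minus strand.

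EMP1: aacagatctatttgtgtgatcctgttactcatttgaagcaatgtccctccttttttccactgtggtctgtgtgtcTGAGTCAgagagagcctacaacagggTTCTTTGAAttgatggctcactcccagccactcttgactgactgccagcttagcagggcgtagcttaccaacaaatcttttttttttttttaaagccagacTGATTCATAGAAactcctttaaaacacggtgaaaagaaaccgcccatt
ADGRG1: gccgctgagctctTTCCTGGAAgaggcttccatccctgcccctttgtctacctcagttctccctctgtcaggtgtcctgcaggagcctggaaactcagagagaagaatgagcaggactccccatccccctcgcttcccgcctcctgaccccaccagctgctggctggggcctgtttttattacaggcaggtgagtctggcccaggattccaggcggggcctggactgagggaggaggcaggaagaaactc
ADAM19: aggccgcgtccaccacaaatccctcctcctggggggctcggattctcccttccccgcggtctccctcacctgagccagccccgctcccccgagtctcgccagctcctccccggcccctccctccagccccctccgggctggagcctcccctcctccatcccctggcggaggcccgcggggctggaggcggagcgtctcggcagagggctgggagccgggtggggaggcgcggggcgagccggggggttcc

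The EMP1 promoter had 2 GAS matches, TTCTTTGAA and TTCATAGAA, beginning 149 and 45 bases before the start. It also had 2 AP-1 matches, TGAGTCA and TGATTCA, at 175 and 48, and the last of these overlaps the second GAS match. The ADGRG1 entry had 1 GAS match, TTCCTGGAA, at 237, and of its other 2 annotated starts 1 had 2 AP-1 matches and none had GAS. ADAM19 had neither, and nor did ADAM8 or the 2 starts of ANTXR2. In all 5 of the 8 genes had an entry in the promoter table. GAS was found in 6.57% of all 35116 promoters of this length, and AP-1 also in 6.57%. A match is a description of these letters, and binding was not measured.

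ADAM19, a sheddase of the ADAM family, had a signal of 229.8 and 235.4 on the JAK3 siRNA arrays and of 465.3 and 446.7 on their controls. Its single differences ran from -1.02 to -0.92, with a mean difference of -0.97 (1.96-fold lower). MMP12, the metalloelastase best known from macrophages, was at 39.2 and 35.12 against 70.1 and 73.36, with single differences from -1.06 to -0.84. Both siRNA values of MMP12 were close to the lower quartile of signal on those arrays (32.43 to 32.88), which limits how its fold can be read. ADAM8, a sheddase of leukocytes, was at 72.14 and 72.9 against 79.23 and 69.61. Its siRNA values fell between its 2 control values, and 2 of its 4 single differences were above 0 and 2 below. In a bulk measurement like this, fewer cells with a transcript and less of it per cell cannot be told apart.

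SULF1, which trims sulfate from heparan sulfate on the cell surface, was at 736.9 and 709 with JAK3 siRNA against 986.9 and 985.7 in the controls. Its single differences ran from -0.48 to -0.42, with a mean of -0.45, the smallest of the 4 lower genes. EMP1, a small membrane protein of the PMP22 family, was at 181.9 and 196.4 against 373.1 and 340.3. Its mean difference was -0.91 (1.89-fold lower), and the groups did not overlap.

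LAYN, a transmembrane lectin that binds hyaluronan, was at 217.8 and 205.7 with JAK3 siRNA against 126.3 and 109.3 in the controls, a mean difference of 0.85 (1.80-fold higher). A second LAYN probe set was at 77.21 and 82.79 against 73.84 and 72.31, a difference of 0.13, so that the 2 probe sets disagreed in size. The second probe set was highest on vector array 1 at 184.1, where the first was lowest at 80.99. Averaged over both probe sets the LAYN difference was 0.49. ANTXR2, the anthrax toxin receptor that binds collagen IV and laminin, was at 492.7 and 494.3 against 309 and 309.8. Its 4 single differences spanned 0.67 to 0.68, the narrowest range of the 8 genes. ADGRG1, an adhesion G protein-coupled receptor of cytotoxic lymphocytes that binds collagen III, was at 146 and 144.2 against 101.1 and 100.3, a mean difference of 0.53. Of 9 natural killer markers tested after JAK3 siRNA 4 were above 0 and 5 below. KLRD1 fell by 0.47 (adjusted p = 0.00991, limma) and NCAM1 by 0.36 (0.0298). The others did not pass. Of them PRF1 at 0.21, IL2RB at 0.16, NKG7 at 0.06 and KLRC1 at 0.05 were above 0. GZMB at -0.11, CD2 at -0.09 and CD7 at -0.04 were below. The part of these markers in the ADGRG1 difference was not tested.

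**Figure D1:**
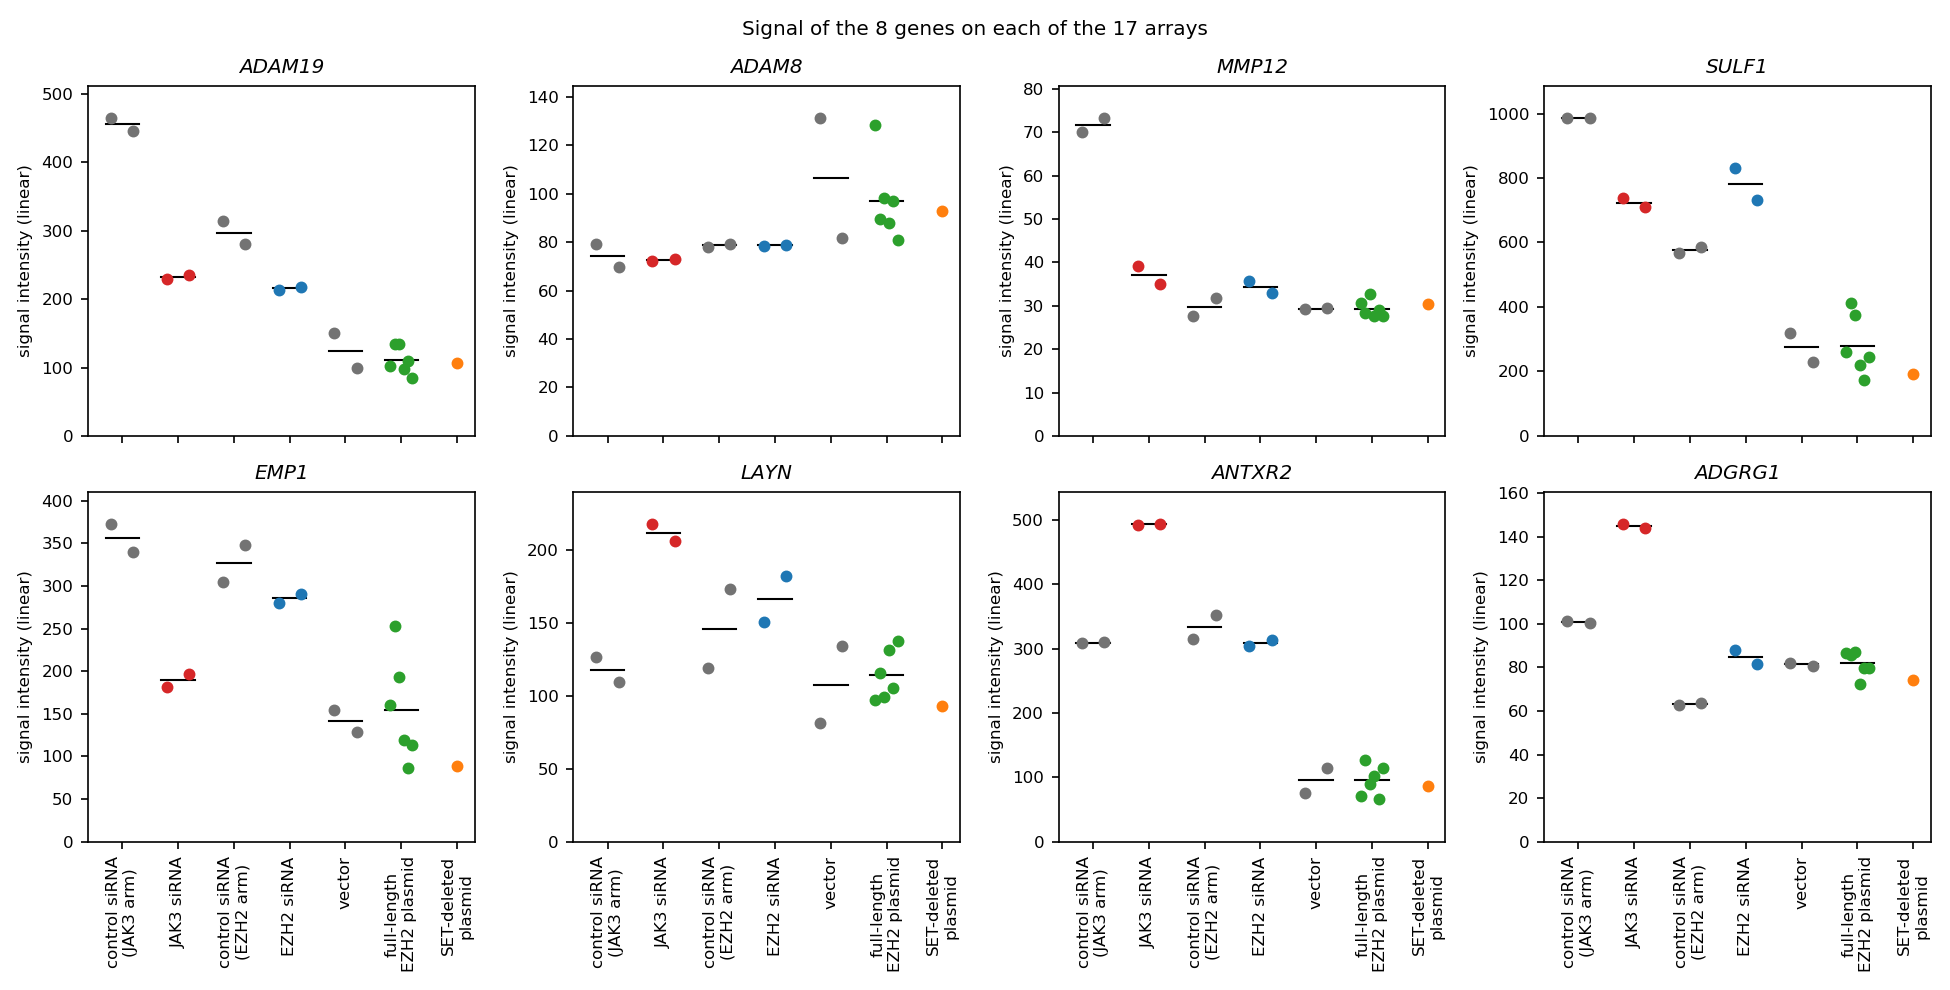
Linear signal intensity (y axis, from 0, a scale of its own for each gene) of the 8 genes on each of the 17 arrays, by group (x axis). Points are arrays and bars the means of groups of at least 2 arrays. ADAM19, MMP12, SULF1 and EMP1 are lower and LAYN, ANTXR2 and ADGRG1 higher with JAK3 siRNA than in the controls of that arm, while ADAM8 overlaps.

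Among all genes tested, 200 of 14466 (1.38%) were called after JAK3 siRNA at an adjusted p under 0.05 (limma). The 8 genes held 7 of them, which follows from how they were chosen. Leaving out any 1 array of the JAK3 arm lost some of these calls and many of those of other genes. Under the 17 alternatives the differences of these 7 genes kept their sign (16 for MMP12, which the 50th percentile filter left out), and that of ADAM8 ranged from -0.13 to 0.06. The single differences of each of the 7 already shared a sign, and many alternatives leave the difference unchanged, so that the kept sign is no check.

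The other genes of these pathways show how the 8 sit among their relatives. Of 133 listed genes 83 could be tested, and 3 fell and 1 rose after JAK3 siRNA, or 4.82%. Since the 8 genes were taken from the same families for having changed, this share describes what was left. Of 7 other ADAM proteases tested none was called (limma, 0 at an unadjusted p under 0.05), with ADAM9 at -0.09, ADAM10 at -0.05 and ADAM17 at 0.02 on the log2 scale. None of 12 other matrix metalloproteases was called either (0 unadjusted), with MMP9 at -0.14 and MMP14 at 0.12. The medians of these lists were 0.00 and -0.04, beside -0.01 for all genes tested.

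Among 7 protease inhibitors SERPINE2, a serpin that inhibits serine proteases and not metalloproteases, fell by 0.73 (SE 0.082, adjusted p = 0.000711, limma). TIMP1 was at 0.07. SERPINE2 was called under all 17 alternatives. Of 16 heparan sulfate genes EXTL2, a glycosyltransferase related to the enzymes that build the chain, fell by 0.46 (SE 0.0826, adjusted p = 0.0151), while SULF2, the other sulfatase of this kind, was at -0.02. Of 10 other matrix receptors ITGA2, the collagen-binding integrin chain, fell by 0.50 (SE 0.0857, adjusted p = 0.0120) and ITGA4, which pairs with beta chains to bind fibronectin and VCAM-1, rose by 0.45 (SE 0.071, adjusted p = 0.00837). The calls of ITGA2, ITGA4 and EXTL2 were lost without any 1 of the 4 arrays of the JAK3 arm, with adjusted p values from 0.0682 to 0.284. ITGA2 and EXTL2 were also lost with no filter (adjusted p = 0.073 each). None was called among 2 EMP relatives (EMP2 at -0.07, EMP3 at -0.08), 7 hyaluronan genes, 11 other adhesion G protein-coupled receptors (ADGRG3 at -0.02) and 11 matrix proteins, of which 0, 0, 2 and 0 had an unadjusted p under 0.05.

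EZH2 siRNA gave calls for 3 of the 8 genes, with MMP12 given no test. The rule that chose the genes names the JAK3 siRNA comparison and not this one, but they were chosen with earlier results of these data known. ADAM19 fell, and SULF1 and ADGRG1 rose, each with 1 sign in both pairs of arrays. Each of these calls was lost in some of the alternative fits, as given below. Among all genes 136 of 14466 (0.94%) were called, 54 higher and 82 lower. The split was 47 higher and 33 lower after quantile normalization and 31 higher and 161 lower once array medians were made equal.

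ADAM19 was at 212.8 and 218.5 with EZH2 siRNA and at 313.7 and 280.6 on the paired controls. Both siRNA arrays lay below both controls, and the change was -0.46 (SE 0.0753, adjusted p = 0.0275, limma), with -0.56 in pair 1 and -0.36 in pair 2. SULF1 was at 830.7 and 732.1 against 566.6 and 586.5, with no overlap. Its change was 0.44 (SE 0.0768, adjusted p = 0.034), with 0.55 in pair 1 and 0.32 in pair 2, and without the pairs as a block the adjusted p was 0.052. ADGRG1 was at 87.8 and 81.61 against 62.64 and 63.58. Its change was 0.42 (SE 0.0708, adjusted p = 0.0285), with 0.49 and 0.36 in the pairs.

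These SEs use the spread of all 8 siRNA arrays, the arrays that chose the genes included. In a limma fit of the EZH2 arm alone, ADAM19 had an adjusted p of 0.0103, SULF1 of 0.0188 and ADGRG1 of 0.025. That fit has 4 arrays and 1 residual degree of freedom, so that these values rest largely on the spread pooled over genes. The 3 calls were lost with no filter on low signal (adjusted p = 0.109 to 0.12), with array weights (0.131 to 0.149) and without any of the 4 JAK3 arm arrays (0.0695 to 0.0865). They were also lost without EZH2 control array 1 or EZH2 siRNA array 1. The changes are then those of pair 2 alone, -0.36 for ADAM19, 0.32 for SULF1 and 0.36 for ADGRG1. The fits with no filter, with array weights and without a JAK3 arm array left the changes as they were, so that the sign in them is no check.

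Of the other 5 genes MMP12 was at 35.77 and 32.86 against 27.62 and 31.86, near the lower quartile throughout. It passed the filter only through its level in the JAK3 arm controls, and its difference of 0.21 is given as a description with no test. The remaining 4 did not pass. EMP1 was at 280.4 and 290.5 against 304.9 and 347.9 (-0.19, SE 0.0793, adjusted p = 0.263), and both siRNA values were below both controls. LAYN was at 150.2 and 181.8 against 118.7 and 173.2 (0.20, adjusted p = 0.298), with overlapping groups. ANTXR2 was at 304.6 and 313.3 against 314.3 and 351.9 (-0.11, adjusted p = 0.535), and ADAM8 at 78.48 and 78.97 against 78.22 and 79.1 (0.00, adjusted p = 0.999). The EZH2 siRNA arrays did not overlap their controls for ADAM19, SULF1, EMP1, ANTXR2 and ADGRG1 and overlapped them for LAYN and ADAM8. MMP12 is left out here. Among all genes tested 37.5% did not overlap.

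**Figure D2:**
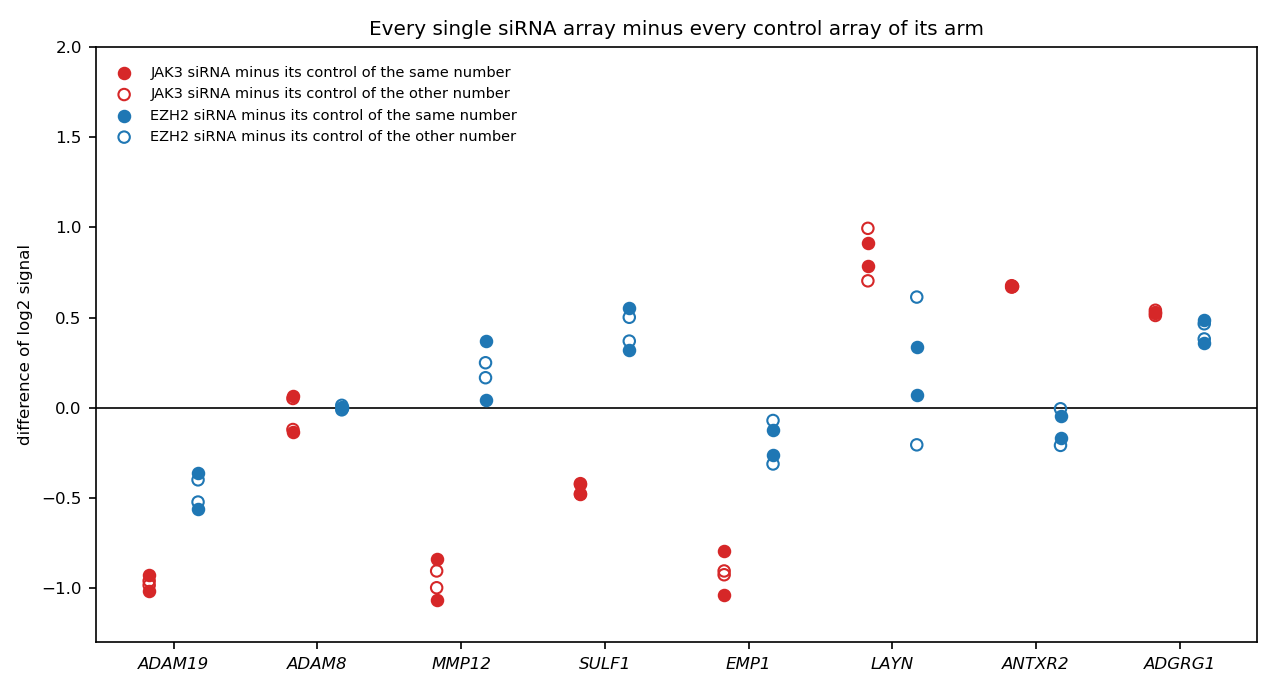
Difference of log2 signal (y axis) for every siRNA array against every control array of its arm, for each of the 8 genes (x axis). Filled points join arrays of the same number and open points arrays of different numbers. For SULF1 all 4 differences are below 0 with JAK3 siRNA and above 0 with EZH2 siRNA, and for ADGRG1 they are above 0 with both.

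Set side by side, the mean differences after JAK3 and EZH2 siRNA were -0.97 and -0.46 for ADAM19, -0.91 and -0.19 for EMP1, and 0.53 and 0.42 for ADGRG1. They had opposite signs for SULF1 (-0.45 and 0.44), MMP12 (-0.95 and 0.21) and ANTXR2 (0.67 and -0.11). LAYN had 0.85 and 0.20. No test is given for the difference between the knockdowns, because it contains the comparison that chose the genes. Of the 83 other matrix genes tested none was called after EZH2 siRNA (limma, 4 at an unadjusted p under 0.05), and SERPINE2 was at 0.20 (adjusted p = 0.259).

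**Figure D3:**
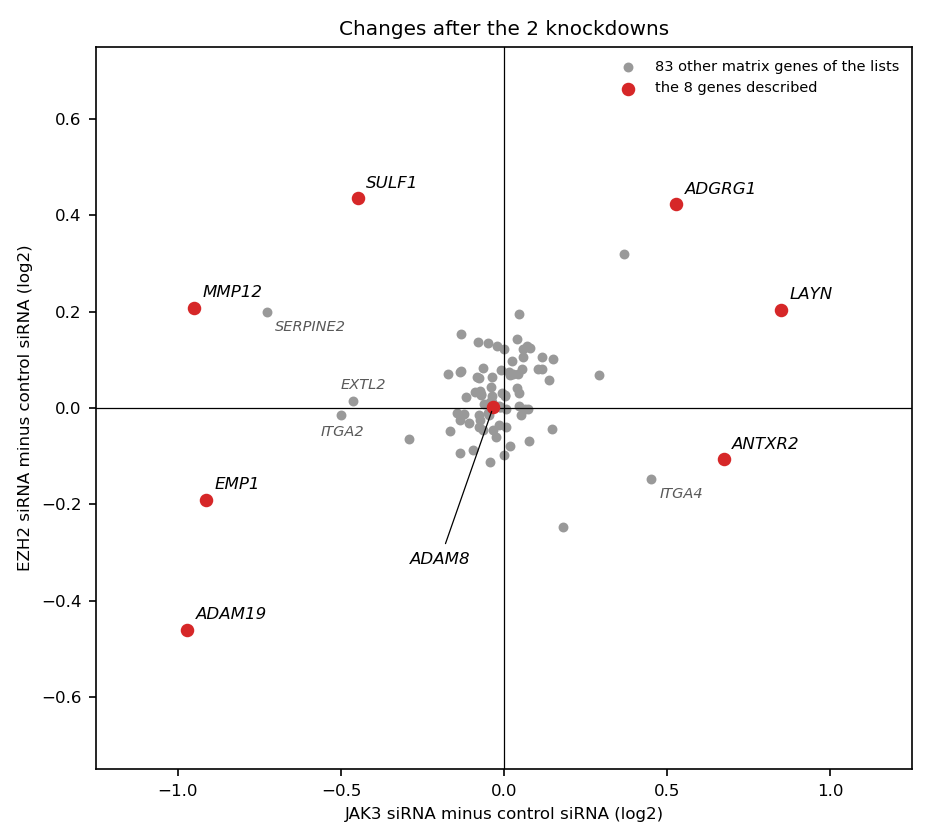
Log2 change after JAK3 siRNA (x axis) against log2 change after EZH2 siRNA (y axis) for the 8 genes described and 83 other matrix genes of the lists, with the 4 list genes called after JAK3 siRNA named. Each knockdown has its own controls, and the 8 genes were chosen for their place on the x axis. ADAM8 lies at -0.03 and 0.00, and SULF1 at -0.45 and 0.44.

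The control siRNA arrays of the arms differed for some of these genes, which bears on how each level is read. MMP12 was at 70.1 and 73.36 in the JAK3 arm controls and at 27.62 and 31.86 in the EZH2 arm controls, a 2.42-fold gap. SULF1 was at 986.9 and 985.7 against 566.6 and 586.5 (1.71-fold), ADGRG1 at 101.1 and 100.3 against 62.64 and 63.58 (1.60-fold), and ADAM19 at 465.3 and 446.7 against 313.7 and 280.6 (1.54-fold). In these 4 genes the controls did not overlap and lay at least 1.5-fold apart, always with the JAK3 arm higher. Among all genes this held for 88 of 14466 (0.608%), 71 of them higher in the JAK3 arm.

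The gap shares the JAK3 arm controls with the rule that chose the genes, and it gets no test. The JAK3 siRNA level of SULF1, 736.9 and 709, lay above the EZH2 arm controls and overlapped the EZH2 siRNA arrays at 830.7 and 732.1. MMP12 with JAK3 siRNA, at 39.2 and 35.12, also lay above the EZH2 arm controls at 27.62 and 31.86. On no array outside the JAK3 arm was MMP12 above 35.77, so that its lower signal is set by the high level of the JAK3 arm controls. ADAM19 with JAK3 siRNA, at 229.8 and 235.4, lay below the EZH2 arm controls. ADGRG1 in the JAK3 arm controls lay above all 4 arrays of the EZH2 arm, the EZH2 siRNA arrays included. For ANTXR2, EMP1 and LAYN the control gaps were smaller, at 1.07-, 1.09- and 1.22-fold, and for ANTXR2 and EMP1 the JAK3 siRNA arrays lay outside all 4 controls. LAYN at 217.8 and 205.7 also lay above all 4 controls, the highest of which was EZH2 control array 2 at 173.2. JAK3 itself averaged 324.4 and 324.8 in the 2 control groups. Arm and any difference in culture or handling between the arms cannot be told apart.

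MMP12 is a known product of macrophages. Of 9 measured macrophage and monocyte markers LYZ, MRC1 and CD163 lay between 24.07 and 39.93 on every array. CSF1R (98.18 to 240.4), CD68 (77.44 to 124) and MARCO (66.9 to 147.5) were above the array median on all 17 arrays. FCN1 was above it on 15, ITGAM on 12 and CD14 on 5. The summed signal of 9 measured macrophage and monocyte markers was 550.8 to 576.9 in the JAK3 arm controls, 580 to 605.9 with JAK3 siRNA and 570.5 to 605.9 in the EZH2 arm controls. With EZH2 siRNA it was 635.7 to 657.4. The part of these markers in the MMP12 values was not tested. Fibroblast genes DCN and LUM lay between 23.31 and 27.78, while COL1A1 (85.71 to 158.6) and COL1A2 (70.26 to 122.8) were above the median on all arrays.

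With plasmids, the full-length EZH2 constructs as a group gave no change in these genes beyond the spread between arrays. MMP12, at 27.69 to 32.68, did not pass the filter on low signal in this fit, and the other 7 had changes of -0.17 to 0.12 against vector (SE 0.133 to 0.351, limma). The smallest unadjusted p was 0.478 and the adjusted p was 1 for each. Among all genes tested, 0 of 14410 (0%) were called, 10 at an unadjusted p under 0.05, and with these SEs a miss does not show that a gene kept its level. EZH2 itself, with a log2 change of 1.85 (SE 0.347, unadjusted p = 0.000348, limma), was not called either. In 0 of the 7 genes did the groups stay apart, against 0.763% of all genes tested.

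EMP1 was at 154.8 and 128.2 with vector and had a lowest, median and highest value of 86.95, 140 and 253.1 over the 6 full-length plasmids. ANTXR2 was at 76.4 and 114.8 with vector and at 65.95, 96.02 and 127.4 with the plasmids. SULF1 was at 318.3 and 230.3 with vector and at 173.7, 251.1 and 412.2 with the plasmids. In each of these genes the plasmid arrays spread over both vectors.

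ADAM19 was at 150.7 and 98.96 with vector and at 84.47, 105.6 and 134.9 with the plasmids. ADAM8 was at 131.4 and 81.63 with vector and at 80.89, 93.33 and 128.4 with the plasmids, so that its 2 vector arrays lay slightly farther apart than the extremes of the 6 plasmid arrays. LAYN was at 80.99 and 134.3 with vector and at 97.3, 110.2 and 137.5 with the plasmids. ADGRG1 varied least of the 7 genes tested, at 81.86 and 80.89 with vector and at 72.4, 82.85 and 87.27 with the plasmids.

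Within sets, all 3 set 1 plasmid arrays of EMP1 lay above their vector (0.05 to 0.71) and all 3 of set 2 below (-0.56 to -0.10). ADGRG1 had the same split, with 0.07 to 0.09 in set 1 and -0.16 to -0.02 in set 2. The difference of the plasmid effect between the sets was -0.64 for EMP1 (SE 0.363, adjusted p = 0.422, limma) and -0.15 for ADGRG1 (SE 0.222, adjusted p = 0.719), and neither passed. Of all 14410 genes 0% passed this test, and 1762 had an unadjusted p under 0.05.

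**Figure D4:**
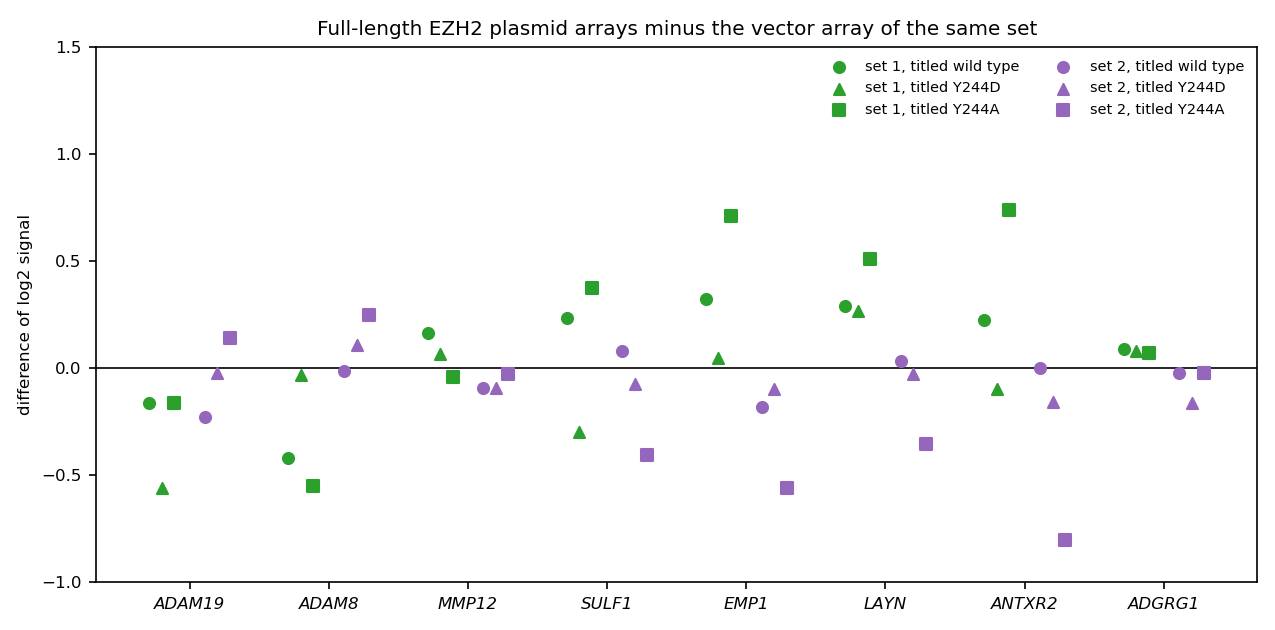
Difference of log2 signal between each full-length EZH2 plasmid array and the vector array of its set (y axis) for the 8 genes (x axis). Colour gives the set and shape the construct in the title, which the transfection field contradicts in set 2. The array titled Y244A is highest in set 1 and lowest in set 2 for SULF1, EMP1, LAYN and ANTXR2.

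The array titled Y244A showed the widest swing, with 0.74 for ANTXR2 in set 1 and -0.80 in set 2, and 0.71 and -0.56 for EMP1. Read by title, Y244D against Y244A gave differences of -0.28 (ADAM19) to 0.19 (ADAM8) over the 7 genes tested, with adjusted p values of 1. No gene at all was called in this fit (0%), and none had an unadjusted p under 0.05. Without the set 1 array titled Y244A the differences were 0.67 for EMP1, 0.45 for SULF1 and 0.38 for ANTXR2, each turned from below 0. With set 2 read by the transfection field, where MtCA was taken as Y244D because the set 1 array titled Y244D carries MtCA1, the difference was -0.82 for ANTXR2, -0.58 for SULF1, -0.52 for EMP1 and -0.32 for LAYN, each with an adjusted p of 0.803. ADAM8 then had 0.39. No gene was called under that reading either, with 183 at an unadjusted p under 0.05.

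The plasmid without the SET domain has 1 array and no replicate check. Its EMP1 signal of 89.14 and SULF1 signal of 190.5 were below both vectors, with differences from -0.80 to -0.52 and from -0.74 to -0.27. ADGRG1 was at 74.08, below both vectors by 0.13 and 0.14 in log2. For EMP1, SULF1 and ADGRG1 these signals lay within the range of the full-length plasmid arrays, the lowest of which were at 86.95, 173.7 and 72.4. ADAM19, ADAM8, LAYN and ANTXR2, at 106.9, 92.84, 92.74 and 85.88, lay between the 2 vectors. Beside the EZH2 arm controls the vector arrays were lower for ANTXR2 (log2 difference -1.83), ADAM19 (-1.28), EMP1 (-1.21), SULF1 (-1.09) and LAYN (-0.46) and higher for ADAM8 (0.40) and ADGRG1 (0.37). The interquartile range of log2 signal was 1.79 to 2.18 on the plasmid arrays and 2.27 to 2.33 on the siRNA arrays, and its part in these gaps was not tested.

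Over the 13 arrays outside the JAK3 arm, with the EZH2 arm and the plasmid arrays each centred on their mean, the 28 pairs among the 8 genes had Pearson r from -0.717 to 0.841. By r the highest pair was SULF1 and EMP1 (r = 0.841, Spearman rho = 0.681), and by rho it was SULF1 and ADGRG1 (0.652 and 0.764). MMP12 and ADGRG1 had 0.712 and 0.692, with MMP12 near the lower quartile on these arrays. Of the 3 genes higher after JAK3 siRNA, LAYN and ANTXR2 had r = 0.633 (rho = 0.692), and ADGRG1 had 0.059 with LAYN and -0.123 with ANTXR2. The 3 lowest values were those of ADAM8 with ANTXR2 (r = -0.717), ADAM8 with LAYN (-0.691) and ADAM19 with LAYN (-0.666). These arrays share sets and array-wide scale, so that the values are a description. Those of LAYN come from its first probe set. The second was highest on vector array 1, at 184.1, where the first was lowest at 80.99. It was not correlated with other genes, so that the LAYN values hold for the first probe set only.

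Among the 14432 genes set against each of them the closest to EMP1 in these arrays were TFRC (r = 0.976, rho = 0.967) and APOL6 (0.955, 0.973), and to SULF1 they were DMD (0.95, 0.901) and IL2RA (0.946, 0.918). The closest to LAYN, by its first probe set, were IFI6 (0.96, 0.951) and ANKRD22 (0.958, 0.956). To ANTXR2 they were ZNF561 (0.941, 0.944) and CINP (0.932, 0.918). For ADAM19 they were ERC2 (0.896, 0.879) and POLR1G (0.874, 0.896), and for ADGRG1 ZMIZ2 (0.876, 0.879) and DNAI3 (0.872, 0.94). ADAM8 was nearest to CXXC5 (0.985, rho = 0.819) and SSBP3-AS1 (0.974, 0.852). MMP12, whose signal was near the lower quartile on these arrays, was nearest to SGK1 (0.877, 0.681) and DNAI3 (0.834, 0.681).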

How the data were processed

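RNA of 17 samples was measured on 1 array each. The authors deposited linear signal intensity for 28869 probe sets. Per the labels' protocols RNA was taken with TRIzol and a column and labelled with biotin from 100 ng; background correction and normalization are not given in the sources used here. Values were used as deposited, after log2, and no sample was left out.

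By the platform annotation 19310 probe sets have a single symbol, 1752 have several and 7807 have none. Each gene was read from its brightest probe set on average, and 9 probe sets named the 8 genes, whose identifiers all matched RefSeq. A fit left out genes whose mean fell below the 30th percentile of probe set means, JAK3 and EZH2 excepted. Groups follow the titles; the wild type array without a number was read as set 2.

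Tests used limma 3.58.1 (R 4.3.3), two-sided, with Benjamini-Hochberg adjustment over all genes of a fit. The siRNA fit had all 8 arrays, with the EZH2 pairs as a block and 3 residual degrees of freedom; the plasmid, allele and set fits had 8 arrays with 6, 4 and 4. Titles pair the EZH2 arm, though deviations of paired arrays correlated with r = -0.086. Fits were tested on simulated data.

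The genes and the lists (other ADAM and matrix metalloproteases, inhibitors, heparan sulfate, EMP, hyaluronan, receptor, adhesion receptor and matrix protein genes, and cell type markers) were chosen with earlier results of these data known. Named from lists were called genes, the 3 largest per list, and preset nearest relatives. Alternatives were 2 scalings, 2 filters, mean probe sets, trend with robust fitting, array weights, blocks, single arms, the transfection field reading and leaving out each array.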

Additional observations from a re-analysis of the deposited data

How the results depend on the processing

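After JAK3 siRNA the 200 calls became 94 with no filter, 699 with array weights, 104 with a replicate block on the shared numbers, 523 in a fit of the JAK3 arm alone, and 33 to 519 without 1 array. After EZH2 siRNA the 136 calls became 80 after quantile normalization, 230 with trend and robust fitting, 217 in a fit of the EZH2 arm alone and 20 with no replicate block. No filter gave 0 calls, with 2511 genes under an unadjusted p of 0.05 in limma, and array weights gave 0, with 1255 such genes. Leaving out 1 array gave 0 to 1511 calls, with 1637 to 1934 unadjusted where there were 0: calls were 0 without any JAK3 arm array or either array of EZH2 pair 1, and 1511 without either of pair 2. Fewer or more genes tested is part of the filter's construction, and the cause of the other shifts was not tested. The replicate block on plasmid sets left 0 calls for plasmids (54 at an unadjusted p under 0.05) and 0 for alleles (10). Same-numbered plasmid arrays correlated with r from 0.008 to 0.919, so that the numbers are not taken as pairs, and the JAK3 arm had r = 0.151. With the replicate block in the JAK3 arm EXTL2 had an adjusted p of 0.0545 (limma). Of 134 alternative values of the 8 genes after EZH2 siRNA, 107 kept their side of the threshold, 25 lost a call and 2, both of MMP12, gained one, and MMP12 passed the filter only through the JAK3 arm controls. ADAM8, at 0.00, turned below 0 in 4 of its 17, and the other 7 genes kept their sign. Filters, array weights and leaving out JAK3 arm arrays left the changes as they were, so that the sign in those fits is no check. Without vector array 1, ADAM19 and ADAM8 had 0.14 and 0.23 with plasmids and LAYN -0.25, and without vector array 2 ANTXR2 had 0.28. No alternative gave a call with plasmids (1 to 2755 unadjusted, the latter without vector array 2) or between alleles (0 to 183). Signals near the lower quartile limit what can be read for MMP12.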
